A study of Mus musculus with 4 samples.

Results

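The 9 genes described here, Foxp1, Bach2, Klf2, Foxo1, Tob1, Slfn2, Tsc1, Btg1 and Btg2, encode proteins that hold naive T cells in quiescence, the resting state before antigen is met. They were chosen by name, with earlier results of these data known. Each was taken with its gene body and 50 kb on either side (its window) out of 21887 protein-coding genes. Open chromatin was measured by ATAC-seq, which tags DNA that a transposase can reach, in naive CD4+ T cells from spleen and peripheral lymph node. There were 2 wild-type (WT) libraries and 2 libraries from mice labelled as Ddx55 knockout; the labels give neither the age of the mice, the promoter or cell type of the deletion, nor whether replicates came from separate animals. The data, on build mm10, are the positions of regions called accessible over the 4 libraries together, with no read count and no genotype attached to any region. Of its 64525 regions, 176 overlapped the 9 windows. WT and knockout are therefore described together, the difference between them was not analysed here, the state of Ddx55 in each library cannot be read from the list, and no value has a replicate error or a test. Depth per library is unknown.

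FOXO1, KLF2, FOXP1 and BACH2 are transcription factors. FOXO1 activates genes for survival and homing, Klf2 among them; KLF2 maintains the trafficking receptors of naive cells; FOXP1 restrains the response to interleukin-7 and antigen; and BACH2 represses effector genes. BTG1, BTG2 and TOB1 are related antiproliferative proteins that bring the CCR4-NOT deadenylase to messenger RNA and so shorten its poly(A) tail. SLFN2 is a Schlafen protein without which T cells lose quiescence, and TSC1 is a subunit of the complex that inhibits the growth kinase mTORC1.

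The start sites of these genes differ in base composition, and the promoters of 6 of them are shown here to make that visible. Each is the RefSeq sequence of GRCm38.p6 (mm10), read in the direction of the gene, and holds the 250 bases before the start site and the 50 bases from it on. Capitals mark matches to 13 short motifs, searched on both strands; positions count from 0 at the start site. The first 4 lay wholly inside an accessible region: Klf2 (chr8:72318812-72319111, plus strand), Btg1 (chr10:96616751-96617050, plus), Btg2 (chr1:134079106-134079405, minus) and Tsc1 (chr2:28640983-28641282, plus). Slfn2 (chr11:83064862-83065161, plus) had 172 of its 300 bases in one, and the only listed start of Bach2 (chr4:32417185-32417484, plus), which lies inside the gene, had none.
Klf2: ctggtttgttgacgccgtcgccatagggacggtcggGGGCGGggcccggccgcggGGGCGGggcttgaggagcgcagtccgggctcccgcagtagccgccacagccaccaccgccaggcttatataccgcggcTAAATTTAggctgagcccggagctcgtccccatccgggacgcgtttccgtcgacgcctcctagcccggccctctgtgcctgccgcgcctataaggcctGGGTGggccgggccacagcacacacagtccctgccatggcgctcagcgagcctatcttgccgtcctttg
Btg1: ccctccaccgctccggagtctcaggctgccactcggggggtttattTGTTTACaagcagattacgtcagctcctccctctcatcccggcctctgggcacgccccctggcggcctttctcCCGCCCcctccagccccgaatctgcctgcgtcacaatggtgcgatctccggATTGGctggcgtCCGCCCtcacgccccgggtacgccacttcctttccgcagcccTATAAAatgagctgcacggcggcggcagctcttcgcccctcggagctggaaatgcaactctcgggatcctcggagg
Btg2: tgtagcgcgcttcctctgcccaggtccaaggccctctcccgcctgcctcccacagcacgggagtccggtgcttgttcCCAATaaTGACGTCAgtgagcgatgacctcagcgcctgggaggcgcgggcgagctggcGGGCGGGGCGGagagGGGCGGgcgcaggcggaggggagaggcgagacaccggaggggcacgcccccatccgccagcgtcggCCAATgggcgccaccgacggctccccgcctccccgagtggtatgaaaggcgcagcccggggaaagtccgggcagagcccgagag
Tsc1: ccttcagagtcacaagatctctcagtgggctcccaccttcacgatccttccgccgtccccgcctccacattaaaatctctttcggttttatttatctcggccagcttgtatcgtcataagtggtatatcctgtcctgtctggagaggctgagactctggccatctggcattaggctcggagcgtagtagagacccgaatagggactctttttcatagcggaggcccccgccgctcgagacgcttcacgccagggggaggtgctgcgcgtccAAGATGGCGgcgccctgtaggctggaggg
Slfn2: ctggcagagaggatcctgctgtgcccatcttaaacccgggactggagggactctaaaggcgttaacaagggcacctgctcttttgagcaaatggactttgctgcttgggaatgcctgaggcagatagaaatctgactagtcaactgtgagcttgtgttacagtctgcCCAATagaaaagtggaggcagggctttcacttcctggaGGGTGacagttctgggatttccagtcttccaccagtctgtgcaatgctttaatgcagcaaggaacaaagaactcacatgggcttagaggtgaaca
Bach2: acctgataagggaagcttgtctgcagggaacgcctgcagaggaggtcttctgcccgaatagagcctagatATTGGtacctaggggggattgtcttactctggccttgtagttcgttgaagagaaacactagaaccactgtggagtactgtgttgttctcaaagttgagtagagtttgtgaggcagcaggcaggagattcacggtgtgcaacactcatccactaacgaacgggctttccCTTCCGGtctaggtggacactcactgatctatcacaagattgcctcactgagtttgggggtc

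The Klf2 promoter held the SP/KLF motif GGGCGG at -214 and -195, a motif present in 46.2% of the 21263 listed promoters of protein-coding genes, and the MEF2 core TAAATTTA at -117, present in 0.494%. The MEF2 core was added to the search after this sequence had been read. In the Btg2 promoter the cAMP response element TGACGTCA began at -166 (2.23% of promoters), next to a CCAAT box at -173 (38.2%), and GGGCGG motifs followed at -115, -110 and -100, the first pair overlapping. Btg1 carried the forkhead motif GTAAACA on the opposite strand at -204 (3.01%) and the TATA motif TATAAA at -26 (12.6%). Tsc1 carried the YY1 motif AAGATGGCG at 21, just past the start site (1.83%). Slfn2 held CCAAT at -83 and CACCC on the opposite strand at -45 (59.5%). The Bach2 sequence held the ETS motif CCGGAAG on the opposite strand at -12 (11.6%). The E-box CACGTG, the RUNX motif TGTGGT and the AP-1 motif TGANTCA were in none of the 11 listed promoters, 3 of them of Foxp1. Of all promoters, 7.84%, 15.0% and 6.99% held them. With so few promoters a lower share cannot be read from this, and it was not tested. All motif hits given are matches of letters only.

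Of the 9 genes, 8 had a region within 1 kb of a listed start site, and Bach2 did not; 53.7% of the 17492 protein-coding genes with a listed start had one. The share over all genes followed CpG content. A region lay within 1 kb of 10.5% of start sites with 0 to 4 CpG dinucleotides in the 300 bases, 42.3% with 5 to 13, 79.9% with 14 to 24 and 83.1% with 25 or more. Of the 11 listed starts of the 9 genes, 6 fell in the CpG-rich class, where a region is usual. Tob1 had 40 CpG, Klf2 and Btg2 32 each, Foxo1 31 and Btg1 25. The 3 starts of Foxp1 had 44, 13 and 5 CpG, and each had a region. Tsc1 had 20. The Slfn2 start had 2 CpG, with 11.4% of listed starts having fewer, and a region of 388 bp lay across it. The Bach2 start had 7 CpG and lay 7.02 kb from the nearest region.

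**Figure D1:**
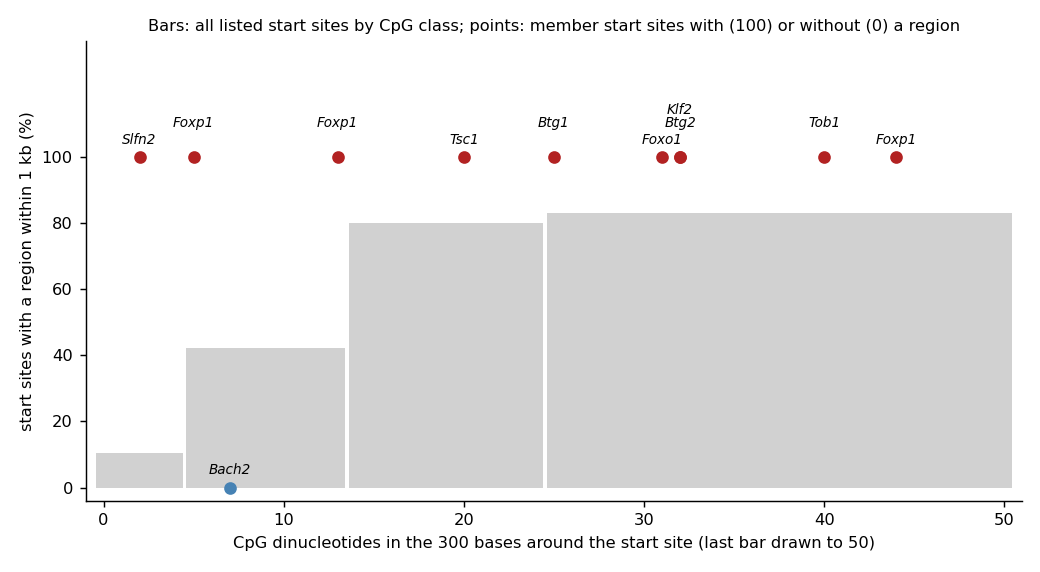
Grey bars give the share of all listed start sites with an accessible region within 1 kb (y axis, percent) by number of CpG dinucleotides in the 300-base promoter (x axis); points are the 11 start sites of the 9 genes, at 100 with a region and at 0 without. Slfn2, with 2 CpG, has a region in the class where 10.5% of starts do, and Bach2 is the point at 0.

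The start regions differed in width. Btg2 had the widest at 1267 bp (chromosome 1, 134078517 to 134079783), wider than the widest region at 88.6% of the 11154 listed starts that had one. Tsc1 followed with 1127 bp, wider than 81.0%. Foxo1 with 839 bp, Btg1 with 818 bp and Klf2 with 734 bp were nearer the median of 825 bp. At Tob1 and Slfn2 the accessible stretch was split. Tob1 had regions of 665 and 436 bp separated by 169 bp, with the start site in the second. Slfn2 had regions of 206 and 388 bp separated by 596 bp, and further ones of 132 and 507 bp began inside the gene. Foxp1 had 3 listed starts on the minus strand, with nearest regions of 575, 393 and 275 bp, the last wider than only 6.35% of start regions, with 44 CpG in its promoter. A further Foxp1 region of 273 bp lay 428 bp from the outer end of the gene model.

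Bach2, the gene without a region at its listed start, had one of 891 bp (chromosome 4, 32239474 to 32240364) at the other possible start. It began 1061 bp inside the 5′ end of the gene model, just outside the 1 kb limit. With 2 kb around the 5′ ends of the gene models, a limit chosen after this was seen, all 9 genes had a region.

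The windows of Foxp1, Bach2, Klf2, Btg2, Btg1 and Slfn2 were rich in regions, and that of Tsc1 was close to the middle of all genes. The median over the 9 windows was 14 regions, with a mean of 19.6 ± 15.8 (SD over the 9 genes), against a median of 5 over all protein-coding genes. The 90th percentile of all genes was 11 regions, which 6 of the 9 reached; 11.1% of all genes did. Foxp1 had 55 regions, and of all genes only Zfp978, with 85, had more; Inpp4b with 48 and Ptprd with 46 came next. Bach2 had 36, more than 99.9% of genes. Klf2 had 17 (more than 98.3%), Btg2 15 (96.8%), and Btg1 and Slfn2 14 each (95.7%). Foxo1 with 10 (85.1%), Tob1 with 9 (79.8%) and Tsc1 with 6 (55.4%) fell short of the 90th percentile.

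**Figure D2:**
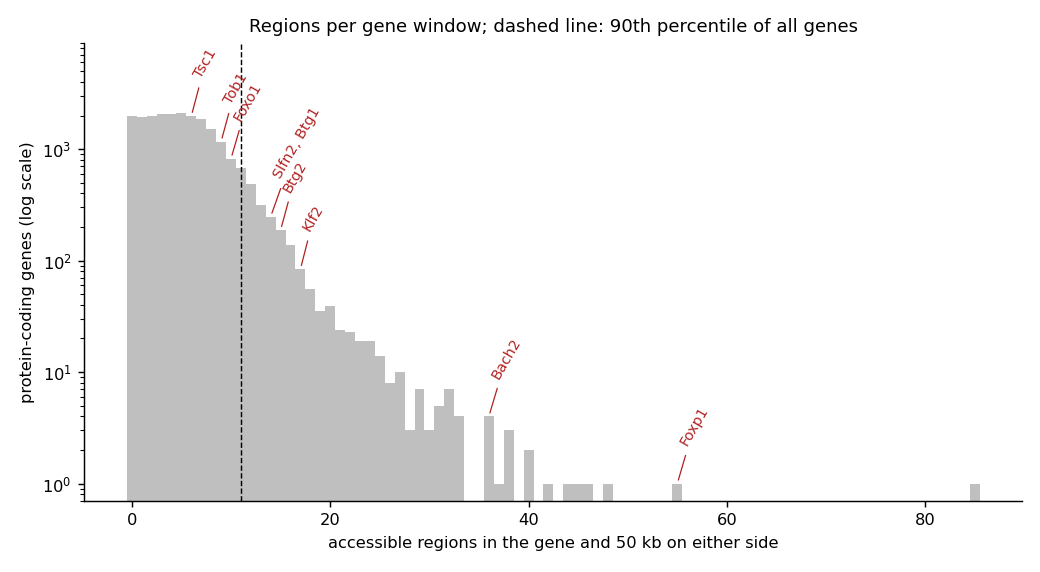
Histogram of the number of accessible regions in each protein-coding gene and 50 kb on either side (x axis) over all 21887 genes (y axis, log scale), with the 9 genes named in red and the 90th percentile, 11 regions, dashed. Foxp1 at 55 and Bach2 at 36 lie in the far tail, and Tsc1 at 6 lies near the median of 5.

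Long genes have larger windows, so counts were also read per length. The 9 windows together held 8.8 regions per 100 kb over 2001 kb, against 2.98 in the joined windows of all protein-coding genes and 2.57 over the autosomes. Per 100 kb, the compact genes were the densest: Klf2 with 16.6, Btg2 with 14.4, Slfn2 with 13.3 and Btg1 with 13.2, where the 90th percentile of all genes was 8.02. Tob1 with 8.52 and Bach2 with 8.04 were just above that value, Foxp1 with 7.89 just below it, and Foxo1 with 5.5 and Tsc1 with 4.0 nearer the median of 3.57. By the share of bases covered, the same 4 genes led, with 6.89% of the Klf2 window, 6.63% of Btg1, 6.52% of Btg2 and 6.39% of Slfn2. Tsc1 was lowest with 1.66%, and the median gene had 1.76%.

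**Figure D3:**
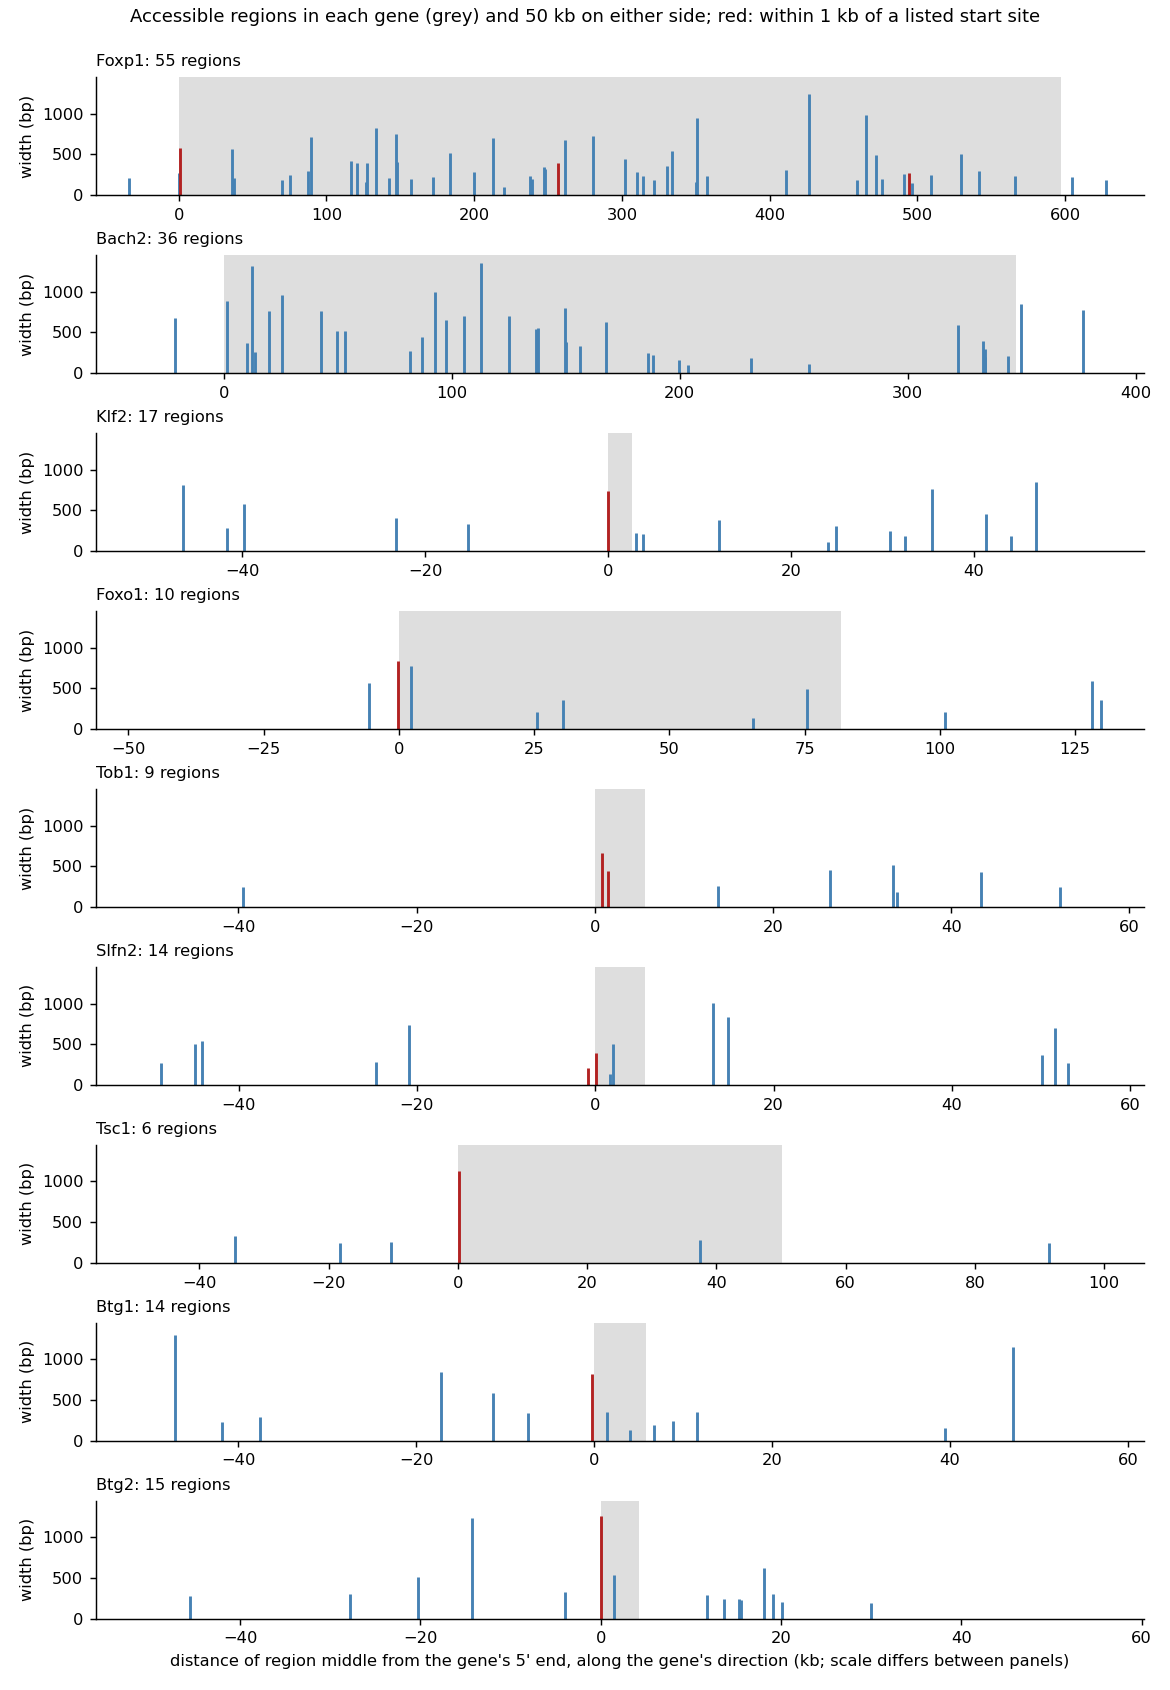
One panel per gene shows each accessible region as a line at the distance of its middle from the 5′ end of the gene, along the direction of the gene (x axis, kb, scale differing between panels), with its height giving the region's width (y axis, bp). Grey marks the gene body and red the regions within 1 kb of a listed start. Regions of Foxp1 and Bach2 lie mostly inside the gene, those of the 5 compact genes mostly outside it.

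Foxp1 (gene ID 108655, chromosome 6, 98925342 to 99522746, minus strand) is 597 kb long, and 52 of its 55 regions lay in the gene body. No other protein-coding gene was annotated in its window. It had the most regions of the 274 genes within 1.5 times its length, whose median was 11. The regions were spread along the gene: 30 lay in the part from the 5′ end to the midpoint and 22 in the rest. The median gap between neighbours was 7.8 kb, and the longest, 53.1 kb, ran from 99111671 to 99164810. Runs of regions with gaps of at most 12.5 kb, a spacing often used to join enhancers, held up to 9 regions here (41.4 kb, 99365148 to 99406582). In the genome, 163 runs held more. Widths of its body regions were close to those of regions inside genes in general. Of the 49 in the body away from its own starts, the median width was 294 bp and 22.4% reached 535 bp, the upper quartile of all regions, against 283 bp and 20.3% for the 25802 regions inside protein-coding genes and away from listed starts. The widest was 1249 bp (99095360 to 99096608).

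Bach2 (gene ID 12014, chromosome 4, 32238413 to 32586109, plus strand) is 348 kb long and had 33 of its 36 regions in the body. Its regions were wide. The body regions had a median of 520 bp, and 15 of the 33 (45.5%) reached 535 bp, beside the 20.3% given above. Among the 513 genes with at least 10 regions in the body, whose median of this value was 299 bp, 16 had a higher median than Bach2. Both the regions and their widths were unequal along the gene. In the 174 kb from the 5′ end to the midpoint, 22 regions of 260 to 1356 bp (median 636 bp) covered 8.47% of the bases. In the 174 kb beyond it, 11 regions of 104 to 589 bp (median 205 bp) covered 1.56%. This division at the midpoint was made after the positions were seen. The first part held a run of 13 regions over 86.2 kb (32320136 to 32406287) with the widest region of the gene, 1356 bp at 32350721 to 32352076; 43 runs in the genome held more. The longest gap, 65.2 kb (32495177 to 32560342), lay in the second part. Past it, 2 regions overlapped the long noncoding RNA gene Bach2os. For Foxp1, the same division gave medians of 334 and 278 bp, and 3.93% and 2.95% of bases covered.

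**Figure D4:**
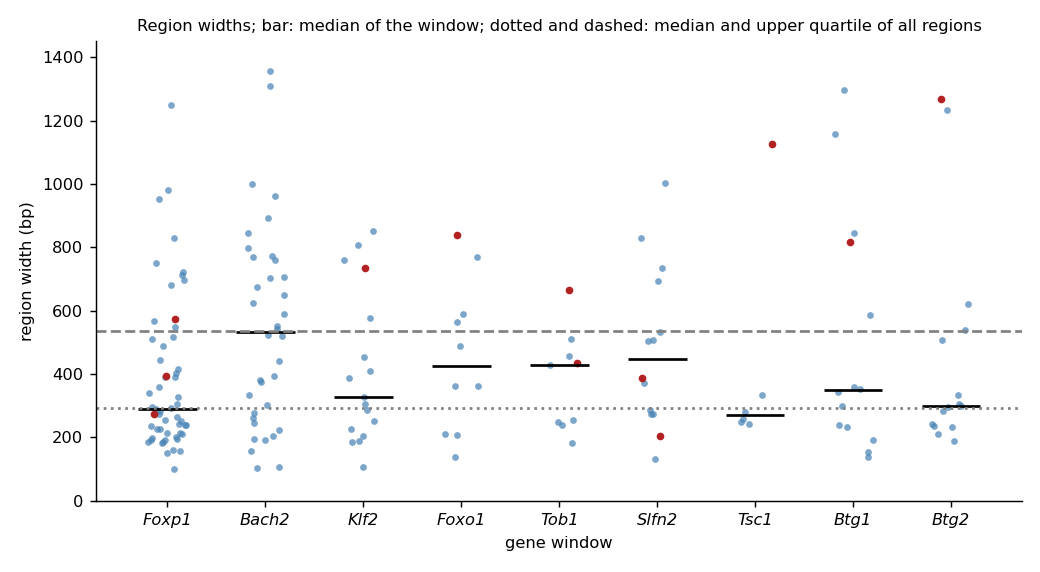
Points are the widths of all regions in each window (y axis, bp), red within 1 kb of a listed start of the gene and blue elsewhere; black bars are medians, and the dotted and dashed lines are the median (294 bp) and upper quartile (535 bp) of all regions. Bach2 has the highest median, 532.5 bp, and Tsc1 the lowest, 269.5 bp, with its start region standing alone at 1127 bp.

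Klf2 (gene ID 16598, chromosome 8, 72319062 to 72321654, plus strand) is 2.59 kb long, and its start region was its only region in the body. Around it lay 5 regions upstream and 11 downstream. From the start region on, 12 regions followed one another over 47.6 kb with no gap above 12.5 kb; 56 runs in the genome held more. Of the downstream regions, 8 lay inside the neighbouring gene Eps15l1, which encodes an endocytic adaptor, so their assignment to Klf2 rests on distance alone. Regions of 227 and 204 bp lay just past the 3′ end of Klf2. The widest were the last downstream in the window, of 851 bp and inside Eps15l1, and the farthest upstream, of 807 bp. The near edge of the latter lay 46030 bp from the start.

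Foxo1 (gene ID 56458, chromosome 3, 52268337 to 52350109, plus strand) is 81.8 kb long and had 6 of 10 regions in the body. Its longest run of regions with gaps of at most 12.5 kb lay at the 5′ end and held 3 of the 10. A region of 564 bp upstream, the start region of 839 bp and one of 771 bp (52270154 to 52270924) made up this run of 8.35 kb. The rest of the gene held 4 regions of 138 to 487 bp, with a gap of 34.9 kb. No other protein-coding gene was annotated in the window.

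Btg1 and Btg2, the close relatives among the RNA-decay adaptors, had similar counts in differently arranged windows. Btg1 (gene ID 12226, chromosome 10, 96617001 to 96622813, plus strand) had 6 regions upstream, 3 in the body and 5 downstream, with no other protein-coding gene in the window. Its widest regions lay near the edges: 1295 bp at 96569281 to 96570575, inside the long noncoding RNA gene Gm33843, and 1157 bp at 96663539 to 96664695. Btg2 (gene ID 12227, chromosome 1, 134074865 to 134079155, minus strand) had 5 upstream, 2 in the body and 8 downstream. A run of 14 regions over 58.1 kb (134049025 to 134107145) took in the whole gene, and 34 runs in the genome held more. Besides its start region, Btg2 had a region of 1234 bp at 134092840 to 134094073, over the noncoding RNA gene Gm32039. Tob1 (gene ID 22057, chromosome 11, 94209842 to 94215495, plus strand) had 1 region upstream, 39.8 kb away from the next, 2 in the body and 6 downstream, of which 3 overlapped Wfikkn2.

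Slfn2 (gene ID 20556, chromosome 11, 83065112 to 83070678, plus strand) lies in the Schlafen gene cluster, and 5 of its 14 regions overlapped Slfn8 or Slfn1. Near Slfn2 itself, 6 regions formed a run of 16.3 kb from 83064188 to 83080464, ending in regions of 1002 and 829 bp downstream of the gene. The 2 regions inside the gene past its start, of 132 and 507 bp, also overlapped the noncoding RNA gene Gm20234; the list carries no strand. Schlafen genes are similar in sequence, and no source used here states how reads that fit several of them were handled, so the regions of this cluster are uncertain.

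Tsc1 (gene ID 64930, chromosome 2, 28640993 to 28691172, plus strand) is 50.2 kb long and had the barest window. Apart from the start region, its 5 regions were 242 to 334 bp wide. The only other region in the body had 280 bp, and the gap after it, 53.7 kb, ran past the 3′ end. Of the 3599 genes within 1.5 times its length, the median count was 6, the same as at Tsc1.

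Over the 5 genes under 10 kb, Klf2, Tob1, Slfn2, Btg1 and Btg2, 69 regions were counted: 23 upstream, 11 in the body and 35 downstream. Only 18 of them had their middle within 10 kb of the gene start. The median of all 7925 protein-coding genes under 10 kb was 3 regions and their 90th percentile 9, against 9 to 17 in these 5. Of the 176 regions of all 9 windows, 18 (10.2%) lay at a listed start of any protein-coding gene, compared with 15.4% of all regions. The 158 others had a median width of 328 bp, against 266 bp for all regions away from listed starts and 283 bp for those inside protein-coding genes. The windows were unequal in this. Counting all regions of a window, medians ran from 269.5 bp at Tsc1 to 532.5 bp at Bach2, which held 36 of the 176. Inside the windows the median gap between neighbours was 6.41 kb, against 18.5 kb over the assembled chromosomes. At most 12.5 kb were 74.3% of gaps, against 38.9%. These measures are unlike: gaps crossing a window edge were left out, while the chromosome values include gaps far from genes.

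Most relatives of the 9 genes had fewer regions per window, but windows differ in length, and for some the order turned per 100 kb. Foxp2, a forkhead gene of 541 kb known for its role in the brain, had 14 regions where Foxp1 had 55, and Foxp4 had 9; per 100 kb these were 2.19, 7.89 and 5.71. Bach1, with a gene of 34.4 kb, had 14 against 36 at Bach2, but per 100 kb it was the denser, with 10.4 against 8.04. Klf4 had 5 against 17 at Klf2, or 4.75 against 16.6 per 100 kb. Klf3, of the same family but listed below among the targets, had 15, or 11.6 per 100 kb. Foxo3 had 7, Foxo4, on the X chromosome, 4 and Foxo6 3, against 10 at Foxo1. Per 100 kb Foxo1 had 5.5, and these had 3.59, 3.75 and 2.5. Btg3 had 6, or 5.11 per 100 kb, below both Btg1 and Btg2. The order was the other way for Tob2, with 11 regions against 9 at Tob1 (9.99 and 8.52 per 100 kb). Slfn8 had 16 against 14 at Slfn2 (13.5 and 13.3 per 100 kb), but their windows overlap. Some regions were counted for both, the Slfn2 start region among them. Tsc2 and Tbc1d7, which encode the other subunits of the TSC complex, had 6 each, as Tsc1 did, and per 100 kb they had 4.38 and 5.01 against 4.0. Of the 17 such genes, Klf3 not among them, 14 had a listed start, and 13 of these had a region there, with Slfn4 the exception. The share was 53.7% of all genes with a listed start, and promoter CpG content was not compared. The median count of the 17 was 7, and 6 of them reached the 90th percentile, beside 11.1% of all genes.

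**Figure D5:**
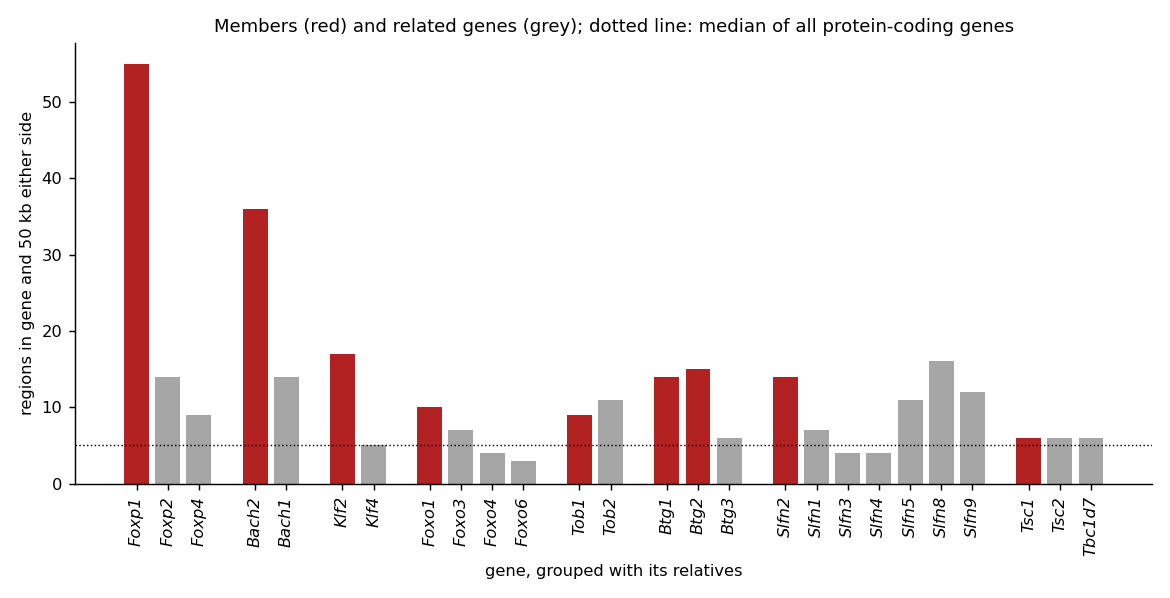
Bars give the number of accessible regions in each gene and 50 kb on either side (y axis) for the 9 genes (red) and their relatives or complex partners (grey), grouped by family (x axis); the dotted line is the median of all protein-coding genes, 5. In counts, Foxp1, Bach2, Klf2, Foxo1, Btg1 and Btg2 stand above every relative drawn, Tob1 and Slfn2 do not, and the TSC genes are level at 6. Windows differ in length, and per 100 kb Bach1 (10.4) is above Bach2 (8.04), and Tsc2 (4.38) and Tbc1d7 (5.01) are above Tsc1 (4.0). The Slfn2 window shares regions with those of Slfn1 and Slfn8, and Klf3, with 15 regions, is not drawn.

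By count, genes that act with these 9 mostly had more regions than the median gene, but windows differ in length. Of 22 other regulators of quiescence, the 16 with a listed start all had a region there, and the median count was 9, led by Rb1, the retinoblastoma cell cycle brake, and Tgfbr2, a receptor of transforming growth factor beta, with 22 each, and Cblb, a ubiquitin ligase, with 20. The 10 targets of FOXO1 and KLF2 had a median of 12.5 regions. Ccr7, the homing chemokine receptor, had 18, Klf3 15 and Il7r, the interleukin-7 receptor, 13. The 16 genes of the mTORC1 pathway that TSC1 restrains had a median of 8.5, with 19 at Rptor, 11 at Akt1s1 and 11 at Mtor. The 11 genes of the CCR4-NOT deadenylase listed and Pabpc1, which encodes a poly(A)-binding protein, together had a median of 8, with 13 at Cnot2, 12 at Cnot3 and 9 at Cnot8; the lowest of the 12 had 1. The 90th percentile was reached by 9 of the 22, 8 of the 10, 3 of the 16 and 2 of the 12. Of all protein-coding genes, 11.1% reached it, and with so few genes a higher share cannot be read for the mTORC1 and CCR4-NOT lists. Per 100 kb, where the 90th percentile of all genes was 8.02, Tgfbr2 had 11.7, Rb1 9.44 and Cblb 7.22. Ccr7 had 16.2, Klf3 11.6 and Il7r 10.5. Akt1s1 had 10.4, Mtor 5.26 and Rptor 4.79. Cnot3 had 10.4, Cnot8 7.15 and Cnot2 6.61. All members of the last 3 lists with a listed start (7, 14 and 9 genes) had a region there. Read against 53.7% of all genes these shares with a start region are high, but promoter CpG content was not compared for these lists. The lists were chosen with earlier results of these data known.

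Listed starts of T cell markers were accessible. The 6 T cell markers with a listed start (Cd3d, Cd3e, Cd3g, Lck, Tcf7 and Lef1) all had a region there, beside 53.7% of all genes with a listed start. Cd4 had no listed start, and promoter CpG content was not compared for the markers. The 9 markers listed, Cd4 included, had a median of 13 regions per window, against 5 over all genes. None of the listed starts of markers for other cells had a region: 1 of CD8 T cells, 2 of B cells, and 3 each of myeloid, natural killer and red cells. Their windows still held regions, with medians of 4.5, 7, 5, 7 and 1. The 90th percentile of all genes, 11 regions, was reached by 6 of the 9 T cell markers and by the natural killer gene Klrb1c. The part of other cells in the regions of the 9 genes was not tested.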

How the data were processed

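Accessible regions were deposited by the authors as a list of starts and ends for the whole series; it holds no count, signal or other value per library. Build mm10 and the tools MACS3 3.0.0b1, SAMtools 1.15.1, Bowtie2 2.5.08 and fastp 0.12.4 come from the submitters' processing notes. No source used here gives the settings, the treatment of duplicates, the cut offset, the peak threshold or how libraries were joined. BED starts were converted to 1-based positions. Genes, start sites, strands and promoters came from RefSeq tables of GRCm38.p6; all 9 genes matched by symbol. A region counted when at least 1 bp overlapped a window. Start sites were those listed in the promoter table (17492 of 21887 protein-coding genes). Percentiles are over all protein-coding genes on assembled chromosomes. The members and gene lists were chosen with earlier results of these data known. The rule for named genes took the 9 members, neighbours sharing a region, in each list the 3 genes with the most regions and up to 2 without a start region, and genes next in rank to Foxp1. The other relatives, the markers, Eps15l1 and the noncoding genes were named after their values were seen. CpG classes, runs of regions, genes of like length and body widths were measures added after the data were seen. Counting was checked on simulated regions. Python 3.11.15, pandas 2.3.3 and numpy 2.4.6 were used.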

Additional observations from a re-analysis of the deposited data

How the results depend on the processing

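Flank size, overlap by the middle, a width filter, merging of close regions, exclusion of regions at ends of other genes, removal of Foxp1 and other background genes were tried. The median count per window was 6 with flanks of 10 kb and 8 with 25 kb, and 14 with 50 kb. With the gene body alone, the windows held 104 regions, the median was 3, and 3 genes reached the 90th percentile. With regions of at least 300 bp, 100 regions remained, the median was 8 and the density 5 per 100 kb. In the other settings tried, each total and median stayed within 1.5 times the main value, and between 5 and 8 genes reached the 90th percentile. Of the 9 genes, 8 had a start region in each start setting except 2 kb around the 5′ ends of the gene models, added after the data were seen, where 9 did. No paired analysis was possible because the list carries no value per library; leaving out single libraries was not run for the same reason. With no depth given, the precision of the counts cannot be stated.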
